A study of Mus musculus with 2 samples.

Results

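Of 2279 barcodes that held at least 1000 gene UMIs (unique molecular identifiers, used to count captured RNA molecules) and at least 500 genes with a UMI, 437 had more than 15% of their UMIs on the mitochondrial genome. They made up 19.2% of these barcodes (exact 95% Clopper-Pearson interval 17.6 to 20.9%), out of 20917 barcodes in all. They are called high-mitochondrial barcodes here, and the 1842 with a mitochondrial share of at most 15% are the reference barcodes. All came from 1 pool of 18 NMM tumors, an NRAS-mutated mouse melanoma line, grown in Rag-/- mice, which lack mature T and B cells of their own but keep NK and myeloid cells. The labels list 6 tumors as Ag-GAS + T, 6 as Mix + T and 6 as Mix PBS, where T stands for T cells and PBS is the control. They spell out neither Ag-GAS nor Mix, and the animals' age is not given in the sources used here. Tumors were minced, digested with Liberase and DNase, and stained with hashtag antibodies, and the sorted cells were CFP+, called bystander tumor cells by the submitters. The labels tie no hashtag to a condition, so the conditions could not be compared. With 1 pool there is no replicate: no test was made, and every interval covers counting error only.

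The mitochondrial genome is a small circle inside the organelle that encodes 13 proteins of the respiratory chain, and its RNA is made and kept behind the mitochondrial membranes. The share of UMIs on it is a common quality measure in droplet data. RNA in the cytoplasm can leave a cell whose outer membrane is damaged, whereas RNA held in mitochondria or in the nucleus is more easily kept, so a high share is often used to remove damaged cells. Metabolically active cells can also hold much mitochondrial RNA.

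The high-mitochondrial barcodes held far fewer UMIs of nuclear genes and about as many mitochondrial UMIs as the reference barcodes. Non-mitochondrial UMIs ranged from 729 to 17146 per barcode, with a median of 3191, against a reference median of 40576.5. The medians differed 12.7-fold, and 0 of the 437 barcodes reached the first quartile of the reference, 26983.8 UMIs. Mitochondrial UMIs had a median of 1508 per barcode (range 247 to 5959), against 1108 in the reference, and 312 of 437 barcodes lay above that reference median. The median barcode held 1711 genes, against 5910 in the reference. Together they carried 2.53% of all gene UMIs in the pool. The barcodes were chosen by their mitochondrial share, gene UMIs and gene number, so these values describe them only.

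**Figure D1:**
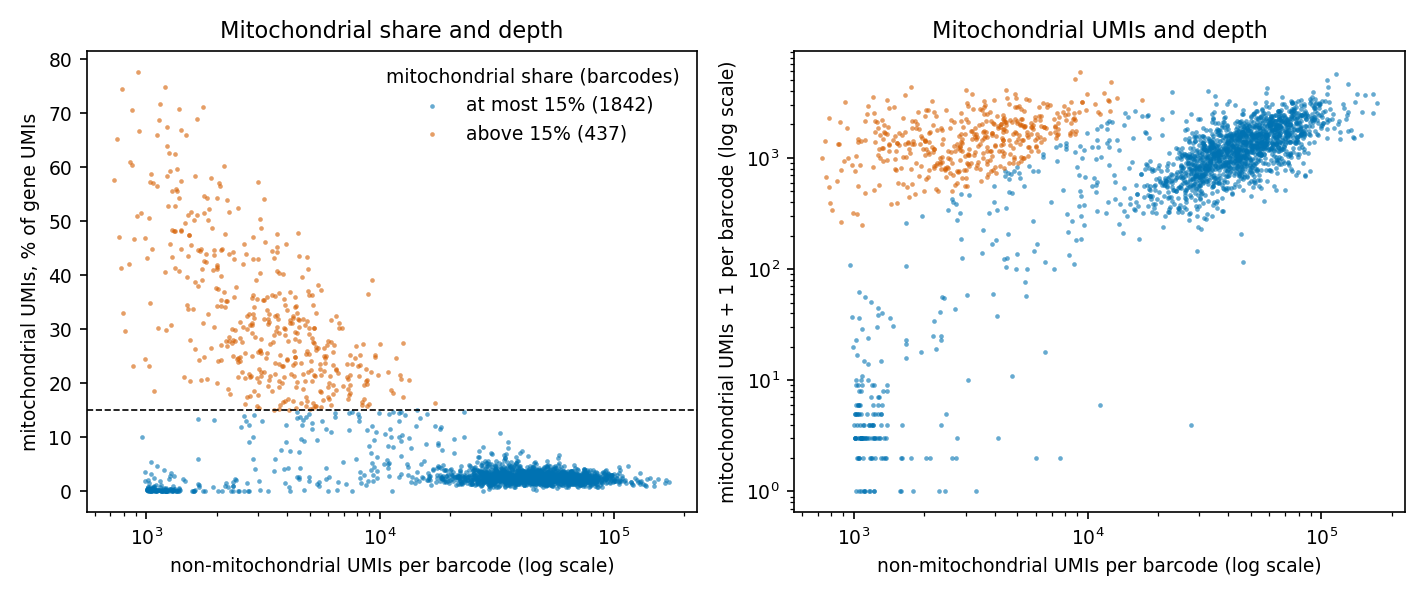
Each point is 1 of 2279 barcodes. The left panel plots the mitochondrial share (% of gene UMIs, dashed line at 15%) and the right panel the mitochondrial UMIs plus 1 (log scale), both against non-mitochondrial UMIs (log scale). The 437 high-mitochondrial barcodes (orange) lie to the left of the main cloud of reference barcodes (blue), at mitochondrial UMI counts that overlap those of that cloud. A group of 164 reference barcodes under 3000 UMIs lies at few mitochondrial UMIs, with a median of 4.

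The mitochondrial share had a median of 30.1% (quartiles 22.5 and 42.0%, highest 77.7%), against 2.54% in the reference. Barcodes lay on both sides of the threshold: 78 from 5 to 10%, 56 from 10 to 15% and 61 from 15 to 20%. The wider range from 20 to 30% held 156. Just outside the threshold, 16 barcodes with a share of 14 to 15% had a median of 10436 non-mitochondrial UMIs and 70837.8 CPM of the nuclear RNA Malat1 (CPM here is counts scaled to 1000000 UMIs of nuclear genes, with the mitochondrial genes left out of the total). Just inside it, 15 barcodes with a share of 15 to 16% had a median of 5024 UMIs and 145694 CPM of Malat1. Among the 437 barcodes the share was lower at greater depth, with r = -0.65 (Pearson) and -0.63 (Spearman) against log10 non-mitochondrial UMIs; the UMIs of nuclear genes enter both measures. In the 1842 reference barcodes the same r was -0.02.

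Barcodes with little RNA held almost no mitochondrial UMIs. The 18473 barcodes with fewer than 800 gene UMIs, taken as a measure of RNA free in the suspension, had a mitochondrial share of 0.384% when summed, and only 1 of them was above 15%. They held on average 2.23 mitochondrial UMIs each, which would be 0.134% of those in a high-mitochondrial barcode. They also held 578 non-mitochondrial UMIs each, which would be 15.3% of the mean in all high-mitochondrial barcodes (3767) and 38.9% of the mean (1484) in those above 50% mitochondrial. Every barcode in the file has at least 500 gene UMIs, so free RNA in droplets below that was not analysed here. The hashtag antibodies, which bind the cell surface, gave a median of 2304 UMIs per high-mitochondrial barcode, 2139 per reference barcode and 55 per barcode of free RNA.

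The 3 marker genes of the label, mt-Co1, mt-Nd1 and mt-Cytb, had UMIs in 437 of 437 barcodes. The barcodes were chosen by UMIs of this genome, so this is no check of the label. mt-Atp6, a subunit of ATP synthase (complex V), took the largest part of the mitochondrial UMIs, 25.0%, against 21.2% in the reference. The cytochrome c oxidase (complex IV) genes followed, with mt-Co3 at 19.0% against 19.5%, mt-Co2 at 15.9% against 15.1% and mt-Co1 at 14.8% against 15.7%. mt-Cytb, the only complex III subunit of this genome, made up 10.3% against 12.3%. Of the complex I genes, mt-Nd1 made up 5.25% against 5.67%, mt-Nd4 4.29% against 4.93% and mt-Nd2 3.47% against 3.44%. The other 5 genes, mt-Nd3, mt-Nd4l, mt-Nd5, mt-Nd6 and mt-Atp8, each stayed under 1% of the mitochondrial UMIs in both groups. The composition within the genome was similar, in that each gene's part in the high-mitochondrial barcodes was 0.836 (mt-Cytb) to 1.18 times (mt-Atp6) that in the reference. On GRCm38, mt-Atp6 spans positions 7927 to 8607 of chromosome M, mt-Co1 5328 to 6872, mt-Nd1 2751 to 3707 and mt-Cytb 14145 to 15288, all coding exons of the plus strand. mt-Atp8 (7766 to 7969) overlaps mt-Atp6, so reads there cannot be told apart.

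Relative to all UMIs of nuclear genes, RNA that stays in the nucleus was much higher in the high-mitochondrial barcodes, and ribosomal protein genes and abundant cytosolic messages were lower. Malat1, a long noncoding RNA of nuclear speckles, stood at 67555 CPM (95% Poisson interval 67159 to 67954), against 6985 CPM in the reference and 1194 CPM in free RNA. The 79 ribosomal protein genes tested had 48 (60.8%) at least 2-fold lower and 0 higher, against 3.18% lower over all genes. Over all nuclear genes with a mean of at least 10 CPM, 2163 of 8705 (24.8%) were at least 2-fold higher and 277 (3.18%) at least 2-fold lower, after 5 CPM was added to both levels, and the median log2 difference was 0.43. This split depends on the scale. With mitochondrial genes kept in the totals it became 768 higher and 1077 lower with a median of -0.02. With ribosomal genes left out of the totals it became 1741 higher and 581 lower with a median of 0.28. It also depends on the filter. A gene under 5 CPM in the reference passes the 10 CPM mean only through its level in the high-mitochondrial barcodes, and is then always called higher. Among 3639 genes of at least 50 CPM, 822 were higher and 226 lower, with a median of 0.15. Read as UMIs per barcode, almost all genes were lower: mean UMIs of nuclear genes were 11.3 times lower, and 10 of the 8705 genes had more UMIs per high-mitochondrial barcode than per reference barcode.

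**Figure D2:**
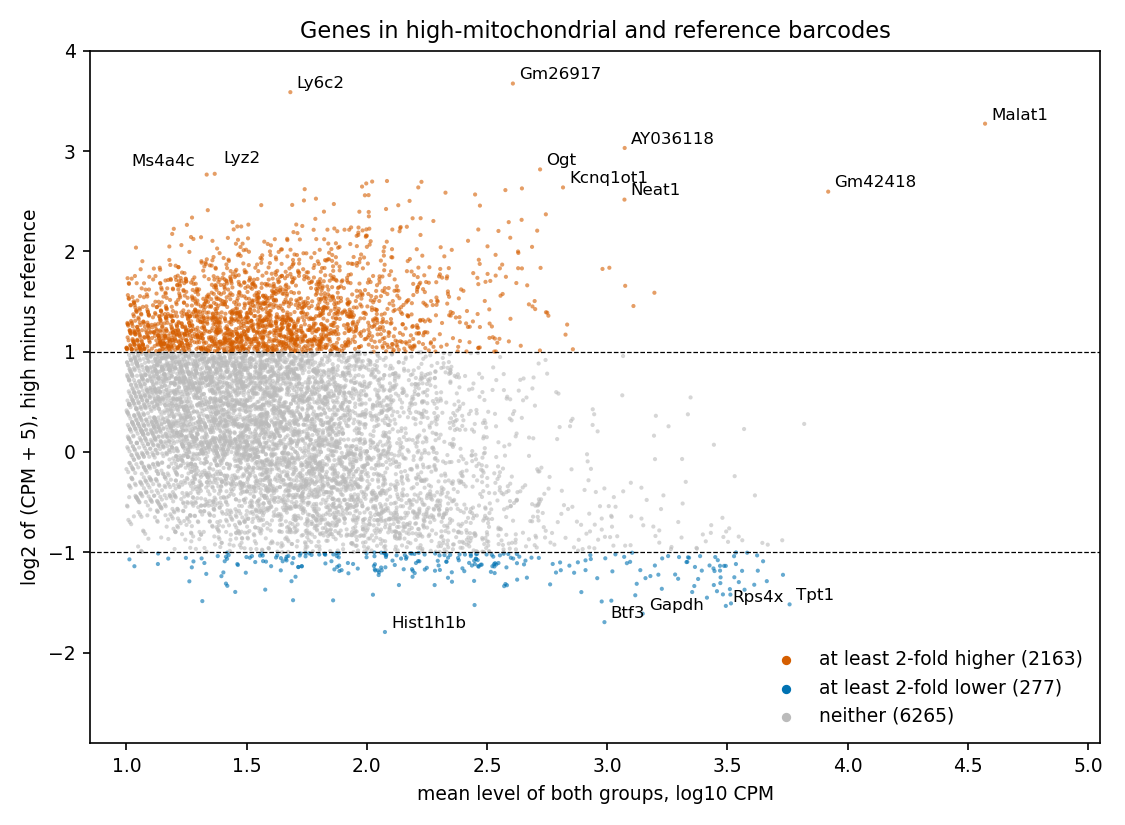
Each point is 1 of 8705 nuclear genes, with the mean level of both groups in log10 CPM on the x axis and the log2 difference of (CPM + 5), high-mitochondrial minus reference, on the y axis. Dashed lines mark 2-fold. Malat1 lies far to the right and above the line, the genes below it are mostly abundant ones, and Ly6c2, Lyz2 and Ms4a4c owe their position to a single barcode.

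Malat1 (chromosome 19, 5795690 to 5802672, minus strand) had a UMI in all 437 high-mitochondrial barcodes. It ranged from 0.0967 to 39.4% of a barcode's non-mitochondrial UMIs, with a median of 4.63%, against a median of 0.463% in the reference, where 54 barcodes had no UMI of it. In absolute terms it did not differ nearly as much, with means of 254 UMIs per high-mitochondrial barcode and 297 per reference barcode. Neat1, the scaffold RNA of paraspeckles, stood at 2010 against 347 CPM (log2 difference 2.52). Pvt1, a noncoding RNA next to Myc, stood at 1596 against 443 CPM (1.84), and Gas5, a host of small nucleolar RNAs that is also found in the cytoplasm, at 782 against 631 CPM (0.31). Kcnq1ot1, an imprinted nuclear RNA named here after its value was seen, stood at 1131 against 178 CPM (2.64). Of the 12 RNAs on the nuclear-retained list 8 were tested, and 5 of them (62.5%) were at least 2-fold higher, against 24.8% of all genes, and 0 lower. Of these 5, Mir17hg was under 5 CPM in the reference. It passed the filter only through the high-mitochondrial barcodes and was thus bound to be called higher.

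The noncoding genes that passed the filter lay mostly on the same side. Of 177 noncoding genes tested, 137 (77.4%) were at least 2-fold higher and 2 lower, with a median log2 difference of 1.56. Of 8522 protein-coding genes, 2025 (23.8%) were higher and 274 lower, with a median of 0.41. Some of the 137 passed the filter only through the high-mitochondrial barcodes, such as Firre (29.2 against 2.31 CPM) and Gm10848 (34.6 against 2.84 CPM). Such genes were not counted, so these shares are no measure of noncoding genes in general. Among protein-coding genes the difference was larger with the length of the gene from start to end, introns included (GENCODE M21). The 20% of genes with the shortest spans (up to 8.92 kb) had a median log2 difference of -0.22, with 7.68% higher and 9.26% lower. The next 3 groups of equal size had medians of 0.15, 0.38 and 0.65. The 20% with the longest spans (from 69.1 kb) had a median of 0.90, with 43.9% higher and 0.235% lower. Genes called higher spanned a median of 47.8 kb with 8.01 kb of exons, and those called lower 7.35 kb with 2.09 kb of exons. Whether intronic reads were counted is not given in the sources used here, and the part of unspliced RNA in this pattern was not tested.

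The 12 genes with the largest positive differences held 8 noncoding or ribosomal RNA-linked loci. Gm26917 on chromosome 17 (39843013 to 39846341) had the largest, at 755 against 54.6 CPM (log2 difference 3.67), and it was the only one of the 4 loci overlapping ribosomal RNA that was low in free RNA (11.4 CPM). AY036118, inside Gm42418 on chromosome 17 (39847113 to 39848035 on GRCm38), followed Malat1, at 2108 against 254 CPM (3.03), and stood at 4371 CPM in free RNA. Lars2, the mitochondrial leucyl-tRNA synthetase, whose locus collects ribosomal RNA reads, stood at 296 against 41.5 CPM (2.69) and at 381 CPM in free RNA. The noncoding genes Gm14636 (2.70), Mir99ahg (2.70), A930037H05Rik (2.68) and Gm26532 (2.65) came next to these. Ogt, the enzyme that attaches O-linked N-acetylglucosamine to proteins and whose message is regulated by intron retention, stood at 924 against 127 CPM (2.82), with UMIs in 351 of 437 barcodes. The loci that overlap ribosomal RNA as a group reached 17399 CPM against 2702 CPM in the reference and 36470 CPM in free RNA, most of it Gm42418 at 14239, 2352 and 31706 CPM. Their reads may come from ribosomal RNA itself, so the levels are not read as expression of these genes.

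Messages of the cytosol were lower. Ribosomal protein genes summed to 116696 CPM against 241077 CPM in the reference and 272446 CPM in free RNA, 2.07-fold lower than in the reference. Per barcode they took a median of 11.7% of non-mitochondrial UMIs, against 24.1%, and a mean of 440 UMIs against 10263. The most abundant ones were lower by slightly less than 2-fold, with Rpl13 at 3759 against 6924 CPM and Rps20 at 3071 against 5761 CPM. Rps2 stood at 2582 against 5872 CPM. Ribosomal protein genes have many processed pseudogenes, so their counts are uncertain where reads map to several copies. Among 28 abundant cytosolic messages, 17 (60.7%) were at least 2-fold lower, against 3.18% of all genes. Tpt1, a translationally controlled protein, stood at 2962 against 8501 CPM, Eef1a1, which brings aminoacyl-tRNA to the ribosome, at 3222 against 7538 CPM, Fth1, the ferritin heavy chain, at 2675 against 6540 CPM, and Actb, cytoplasmic actin, at 2219 against 5053 CPM.

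The 12 largest negative differences were mostly in genes of this kind. Hist1h1b, a replication-dependent linker histone whose message has no poly(A) tail, had the largest, at 50.4 against 187 CPM (-1.80). Btf3, of the nascent polypeptide complex, stood at 456 against 1490 CPM (-1.70), and the glycolytic enzyme gene Gapdh at 689 against 2119 CPM (-1.61). Rps4x (-1.53), Tpt1 (-1.52) and Rpl32 (-1.51) lay close together with Eif3i, an initiation factor subunit (-1.53). Ybx1, an mRNA-binding protein, Pfn1, which binds actin, Mrpl58, which releases stalled peptides in mitochondria, and Eef1akmt1, which methylates Eef1a1, were also among the 12, at -1.49 to -1.48.

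Nuclear-encoded subunits of the respiratory chain summed lower in these barcodes, which were chosen by their mitochondrial genome share. Complex I subunits summed to 3999 against 6246 CPM (ratio 0.640), complex II to 329 against 501 CPM (0.657), complex III to 1062 against 1956 CPM (0.543), complex IV to 3775 against 5514 CPM (0.685) and complex V to 3721 against 6981 CPM (0.533). No subunit of any complex was at least 2-fold higher, and the numbers at least 2-fold lower were 3 of 36, 1 of 4, 1 of 9, 3 of 11 and 6 of 16 in the same order. These are 8.33, 25, 11.1, 27.3 and 37.5%, against 3.18% of all genes and 9.26% of the protein-coding genes of shortest span. Examples are Atp5g2, a subunit of the ATP synthase ring, at 369 against 855 CPM (-1.20), and Cox4i1 at 759 against 1106 CPM (-0.54). Ndufb9 of complex I stood at 380 against 366 CPM (0.06). Proteins of the mitochondrial ribosome summed to 2633 against 4444 CPM, with 5 of 34 (14.7%) lower and 0 higher. Genes that copy, transcribe and process mitochondrial DNA and RNA summed to 756 against 625 CPM, with 2 of 17 (11.8%) higher, against 24.8% of all genes, and 0 lower; those 2, Polg, the DNA polymerase (63.8 against 14.2 CPM), and Twnk, the helicase (44.3 against 13.3 CPM), were named after their values were seen. Tfam, which packs mitochondrial DNA and starts its transcription, stood at 45.6 against 49.4 CPM.

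The lists of endoplasmic reticulum chaperones and of secreted matrix genes summed above the reference over all depths. Chaperones of that compartment summed to 8057 against 6827 CPM (ratio 1.18), with 2 of 19 at least 2-fold higher and 0 lower, and Hsp90b1 stood at 1791 against 1394 CPM and Hspa5, also called BiP, at 1378 against 930 CPM. Secreted matrix genes summed to 15779 against 11366 CPM (1.39), with 10 of 23 higher and 0 lower, of which Col3a1, a fibrillar collagen, stood at 2359 against 782 CPM and Fn1, fibronectin, at 1805 against 569 CPM. Spp1, osteopontin, was the most abundant, at 7229 against 5955 CPM. Against the 24.8% of all genes that were higher, the chaperones had 10.5% and the matrix genes 43.5%. Cytosolic heat shock proteins were on the other side, at 6486 against 11565 CPM (0.561), with Hsp90ab1 at 2758 against 5643 CPM.

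**Figure D3:**
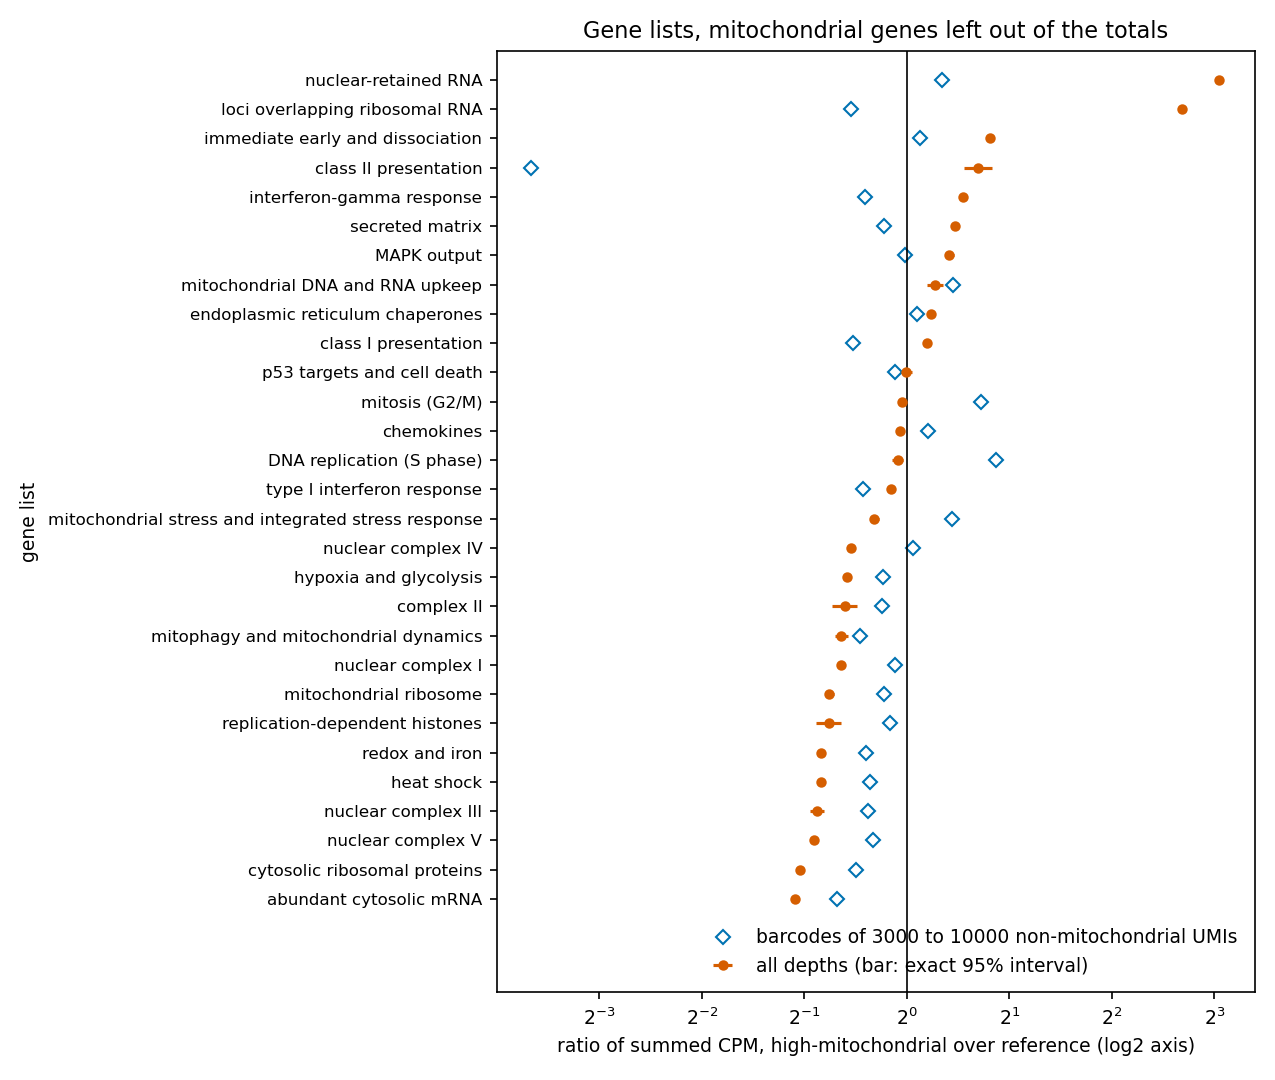
Each row is 1 gene list, and the x axis (log2 scale) is the ratio of its summed CPM in high-mitochondrial over reference barcodes. Filled points use all depths, with exact 95% intervals of the ratio as bars, and open diamonds use only barcodes of 3000 to 10000 non-mitochondrial UMIs. Nuclear-retained RNA lies at 8.28 and 1.27, cytosolic ribosomal proteins at 0.484 and 0.709, and several lists change sides.

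Genes of stress and death showed no shared shift. The p53 and cell death list summed to 1542 against 1551 CPM (ratio 0.994), with 6 of 25 (24%) higher, close to the share over all genes, and 0 lower. Cycs, cytochrome c, stood at 141 against 287 CPM, Bax, which permeabilises the outer mitochondrial membrane, at 155 against 254 CPM, and Mcl1, which opposes it, at 246 against 139 CPM. Genes of the integrated and mitochondrial stress responses summed to 2721 against 3393 CPM (0.802), with 1 of 20 (5%) higher and 0 lower. Mitophagy and mitochondrial dynamics genes summed to 1252 against 1949 CPM (0.642), with 0 of 17 higher and 1 (5.88%) lower. Over all genes 24.8% were higher and 3.18% lower. Immediate early and dissociation genes summed to 4095 against 2337 CPM (1.75), with 5 of 24 higher, against 24.8% of all genes, and 0 lower, among them Jun at 592 against 281 CPM. Redox and iron genes were at 0.561 and hypoxia and glycolysis genes at 0.668 of the reference.

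The interferon-gamma response list summed to 4899 against 3342 CPM (ratio 1.47), with 3 of 21 (14.3%) higher, against 24.8% of all genes, and 0 lower. Among barcodes of 3000 to 10000 UMIs the ratio was 0.752. Iigp1, an immunity-related GTPase, stood at 1537 against 790 CPM. When the reference was weighted to the tag pairs of the high-mitochondrial barcodes, the ratio was 1.35. Class I presentation genes stood at 11735 against 10268 CPM (1.14), with H2-K1 at 2635 against 1806 CPM and B2m, the light chain, at 2845 against 2707 CPM. Type I interferon genes stood at 9933 against 11090 CPM (0.896), with Bst2 at 2284 against 3961 CPM and Isg15 at 1137 against 2035 CPM. Chemokine genes stood at 2779 against 2908 CPM (0.955), with Cxcl10, which attracts CXCR3-bearing T cells, at 1652 against 1476 CPM. Class II presentation genes were low, at 276 against 171 CPM (1.62), with Cd74, the invariant chain, at 108 against 88.4 CPM. Their ratio was 0.625 without the pair HTO7 and HTO10, which holds a barcode rich in macrophage markers and 57 UMIs of Ctss. Among barcodes of 3000 to 10000 UMIs it was 0.0789, with the reference there at 913 CPM. The macrophage and monocyte list of that reference stood at 742 CPM, against 32.1 CPM over all reference barcodes.

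DNA replication genes summed to 1535 against 1636 CPM (ratio 0.939), with 0 of 29 higher and 0 lower. Mitosis genes summed to 3757 against 3893 CPM (0.965), with 0 of 35 higher and 2 (5.71%) lower. Histone genes of S phase summed to 356 against 604 CPM (0.589), with 0 of 9 higher and 1 (11.1%) lower. Over all genes 24.8% were higher and 3.18% lower. Top2a, which untangles chromosomes, stood at 470 against 272 CPM. MAPK output genes, which report signalling below NRAS, summed to 2477 against 1860 CPM (1.33), with 4 of 16 (25%) higher, the share over all genes being 24.8%, and 0 lower, and Ccnd1, cyclin D1, stood at 434 against 605 CPM.

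Markers of the labelled tumor were present in the form the whole pool had. Pigment genes were absent: Pmel, Dct, Sox10, Mlana, Tyr and Tyrp1 had 0 UMIs in the 437 barcodes, which allows up to 3 UMIs over the group, and at most 16 UMIs each in the reference. Slc24a5, a melanosome exchanger, stood at 126 against 49.2 CPM, Pax3 at 107 against 33.1 CPM and Mitf, the regulator of the melanocyte lineage, at 22.5 against 4.20 CPM. Mitf rested on 37 UMIs in 17 of the 437 barcodes, 11 of them in 1 barcode. It passed the filter only through its level in the high-mitochondrial barcodes. The list of dedifferentiated melanoma summed to 4227 against 1785 CPM (ratio 2.37), with 6 of 10 tested members (60%) at least 2-fold higher, against 24.8% of all genes, and 0 lower. Its ratio was 1.15 among barcodes of 3000 to 10000 UMIs. Tcf4 stood at 821 against 317 CPM and Axl, a receptor kinase, at 315 against 141 CPM, while Twist1, named after its value was seen, stood at 195 against 227 CPM. Markers of other cells were low. Cd3e had 1 UMI, and Cd3d, Cd3g, Cd2, Cd8a, Cd4 and Trac had 0. The T cell list, at 47.4 against 109 CPM, was nearly all Trbc2 (74 of its 78 UMIs). The NK, B, dendritic and neutrophil lists held 1 to 6 UMIs each over the 437 barcodes, and the red blood cell and adipocyte lists 2 each. Endothelial markers stood at 73.5 against 48.9 CPM, pericyte and smooth muscle markers at 51.0 against 19.2 CPM, keratinocyte markers at 12.1 against 8.65 CPM and muscle markers, with 5 UMIs, at 3.04 against 6.84 CPM.

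The macrophage and monocyte list stood at 227 against 32.1 CPM, and most of its UMIs came from 1 barcode. That barcode held 341 of the list's 374 UMIs, 8 of its 12 markers and a mitochondrial share of 17.4% among 15112 gene UMIs. It gave 149 of 153 UMIs of Ly6c2, 72 of 73 of Lyz2 and 66 of 68 of Ms4a4c, and these myeloid genes rank among the 12 highest (log2 differences of 3.59, 2.77 and 2.77). In the reference 6 barcodes held at least 6 of these markers and 2211 of 2518 of the UMIs, at mitochondrial shares of 0.259 to 5.20%. Without all 7, the list stood at 20.2 against 3.93 CPM, and Ly6c2 had a log2 difference of 0.39. The fibroblast list, mostly Col3a1, stood at 2557 against 918 CPM, with 3 of its 5 tested members (60%) at least 2-fold higher, against 24.8% of all genes. Dcn, decorin, stood at 54.7 against 68.6 CPM. All 7 fibroblast markers had a UMI in both groups. The sort was for CFP+ tumor cells, yet the pool holds the 7 barcodes rich in macrophage markers. The part of host fibroblasts in the matrix and fibroblast values was not tested.

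Within the high-mitochondrial barcodes, the RNA changed along the share. From 15 to 30% (217 barcodes), 30 to 50% (161) and above 50% (59), median non-mitochondrial UMIs were 4351, 2829 and 1345, while median mitochondrial UMIs were 1258, 1636 and 2087. Along these ranges Malat1 stood at 75040, 57431 and 31676 CPM. Ribosomal protein genes went from 112104 to 118413 and 163563 CPM, and the loci overlapping ribosomal RNA from 12558 to 21574 and 53722 CPM, towards or past the free RNA levels of 272446 and 36470 CPM. Endoplasmic reticulum chaperones stood at 9403, 5897 and 3473 CPM, and secreted matrix genes at 17993, 12482 and 6842 CPM. In free RNA these lists stood at 5411 and 9430 CPM, so both ended below the free RNA level. In the range above 50% free RNA would make up 38.9% of the non-mitochondrial UMIs at the level given above, and its part in these trends was not tested. The shift in Malat1 began below the threshold: it stood at 6488 CPM in reference barcodes of 1 to 5% mitochondrial share, 17091 CPM at 5 to 10% and 52810 CPM at 10 to 15%.

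Since the high-mitochondrial barcodes held so few non-mitochondrial UMIs, barcodes of like depth were compared. Of 3000 to 10000 non-mitochondrial UMIs there were 227 high-mitochondrial and 80 reference barcodes, and there Malat1 stood at 64398 against 52340 CPM, a far smaller gap. Ribosomal protein genes stood at 110874 against 156271 CPM and abundant cytosolic messages at 32169 against 51521 CPM. Under 3000 UMIs the 200 high-mitochondrial barcodes held 136513 CPM of ribosomal protein genes and 79456 CPM of Malat1. The 164 reference barcodes of that depth had a median mitochondrial share of 0.307%, with 240992 CPM of ribosomal protein genes and 16353 CPM of Malat1. Their medians were 1196.5 non-mitochondrial and 4 mitochondrial UMIs, against 1807 and 1218 in those 200. Free RNA had a summed mitochondrial share of 0.384%, with 272446 CPM of ribosomal protein genes and 1194 CPM of Malat1. The part of free RNA in these 164 barcodes was not tested. The reference barcodes of 3000 to 10000 UMIs were mixed. The 39 with at most 5% mitochondrial UMIs had 10955 CPM of Malat1 and 210788 CPM of ribosomal protein genes, near the deep reference barcodes. The 41 with 5 to 15% had 90656 CPM and 105798 CPM, near the 153 high-mitochondrial barcodes of 15 to 30% with 68965 CPM and 111544 CPM.

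At that depth several lists took another side or lost most of their difference. The ratio for nuclear-retained RNA was 1.27 in place of 8.28, and for loci overlapping ribosomal RNA 0.684 in place of 6.44. Each of these sums is mostly 1 gene, Malat1 (1.23) and Gm42418 (0.592), and other members kept a difference. Pvt1 stood at 4.50 and Kcnq1ot1 at 3.06 times the reference, though Neat1 stood at 1.12. AY036118, Gm26917 and Lars2 stood at 1.47, 1.89 and 1.40. The list ratio was 0.752 for the interferon-gamma response, 0.693 for class I presentation, 0.856 for secreted matrix and 0.604 for fibroblast markers. It was 1.09 for immediate early genes, 1.15 for the dedifferentiated list and 1.49 for the melanoma markers. DNA replication and mitosis genes were higher there, at 1.82 and 1.65 times the reference, and the stress response list stood at 1.35. Nuclear complex IV stood at 1.04, and complexes I, II, III and V at 0.921, 0.846, 0.767 and 0.794. Ribosomal proteins (0.709) and abundant cytosolic messages (0.624) stayed below 1, and mitochondrial DNA and RNA upkeep (1.36) above it. The reference barcodes of that depth held more markers of other cells than the whole reference. Their macrophage and monocyte list stood at 742 CPM, against 32.1 CPM over all reference barcodes, and Col1a1 at 574 against 27.5 CPM. The part of host cells in the ratios at this depth was not tested. Of the genes called at all depths, 532 of the 2163 higher and 33 of the 277 lower were called again. In all, 873 of the 8995 genes tested at that depth were higher and 262 lower. The median difference was again lowest for the protein-coding genes of shortest span, with values of -0.04, 0.14, 0.24, 0.34 and 0.34 from the shortest to the longest spans. The 177 noncoding genes had a median of 0.72.

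**Figure D4:**
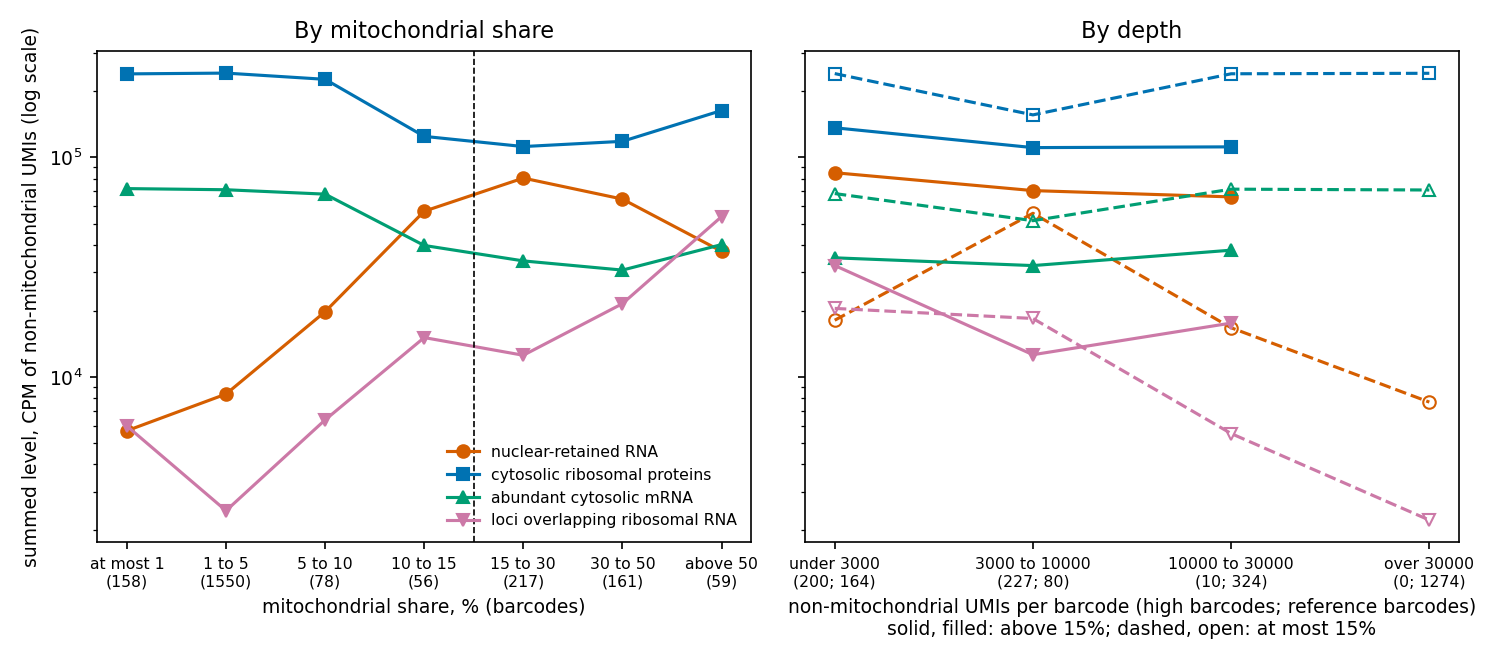
Summed levels of 4 gene lists (CPM of non-mitochondrial UMIs, log scale) by mitochondrial share on the left, with the dashed line at 15%, and by depth on the right, with filled points for high-mitochondrial and open points for reference barcodes. Numbers of barcodes stand under each range. The levels shift between 5 and 15% rather than at the threshold, and the range of 10000 to 30000 UMIs has only 10 high-mitochondrial barcodes.

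At equal depth the barcodes held more different genes. When each was thinned to 1000 non-mitochondrial UMIs, a median of 703.5 genes was found in 418 high-mitochondrial barcodes (19 shallower ones left out) and 628 in 1839 reference barcodes (3 left out). At 3000 to 10000 UMIs before thinning the medians were 728 and 649.5. Unthinned, these barcodes had medians of 1698 and 5897 non-mitochondrial genes over all depths.

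High-mitochondrial barcodes were found under every pair of hashtags that marked cells clearly. Hashtags came in pairs, and the 2 highest of the 10 hashtags gave 29 of the 45 possible pairs. In 18 of these some barcodes had a second hashtag at least 3 times as high as the third, a clear pair, and these 18 held 428 of the 437 high-mitochondrial barcodes. A clear pair was found in 91.1% of high-mitochondrial barcodes (398) and 84.6% of reference barcodes (1559). No doublet caller was run, and the 39 barcodes without a clear pair were kept.

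The number of high-mitochondrial barcodes per pair was 70 of 392 passing barcodes for HTO2 and HTO8 (17.9%), 51 of 228 for HTO6 and HTO7 (22.4%), 52 of 206 for HTO3 and HTO9 (25.2%), 41 of 198 for HTO7 and HTO10 (20.7%), 50 of 184 for HTO1 and HTO9 (27.2%) and 32 of 163 for HTO8 and HTO10 (19.6%). Mid-sized pairs had 21 of 125 for HTO6 and HTO9 (16.8%), 23 of 115 for HTO5 and HTO7 (20%), 8 of 91 for HTO6 and HTO10 (8.79%), 5 of 87 for HTO3 and HTO5 (5.75%), 15 of 80 for HTO1 and HTO2 (18.8%) and 10 of 64 for HTO4 and HTO9 (15.6%). The smallest pairs had 17 of 56 for HTO2 and HTO5 (30.4%), 13 of 52 for HTO4 and HTO8 (25%), 5 of 39 for HTO3 and HTO6 (12.8%), 8 of 36 for HTO2 and HTO4 (22.2%), 4 of 29 for HTO3 and HTO7 (13.8%) and 3 of 25 for HTO1 and HTO3 (12%). The share thus ran from 5.75 to 30.4%, and for 14 of the 18 pairs the interval held the pooled 19.2%. The intervals of HTO1 and HTO9 (20.9 to 34.2%) and HTO3 and HTO9 (19.5 to 31.7%) lay above it, and those of HTO6 and HTO10 (3.87 to 16.6%) and HTO3 and HTO5 (1.89 to 12.9%) below it. Outside these 18 pairs, 3 more held 3 high-mitochondrial barcodes each, and 8 held 0 of 30 passing barcodes.

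**Figure D5:**
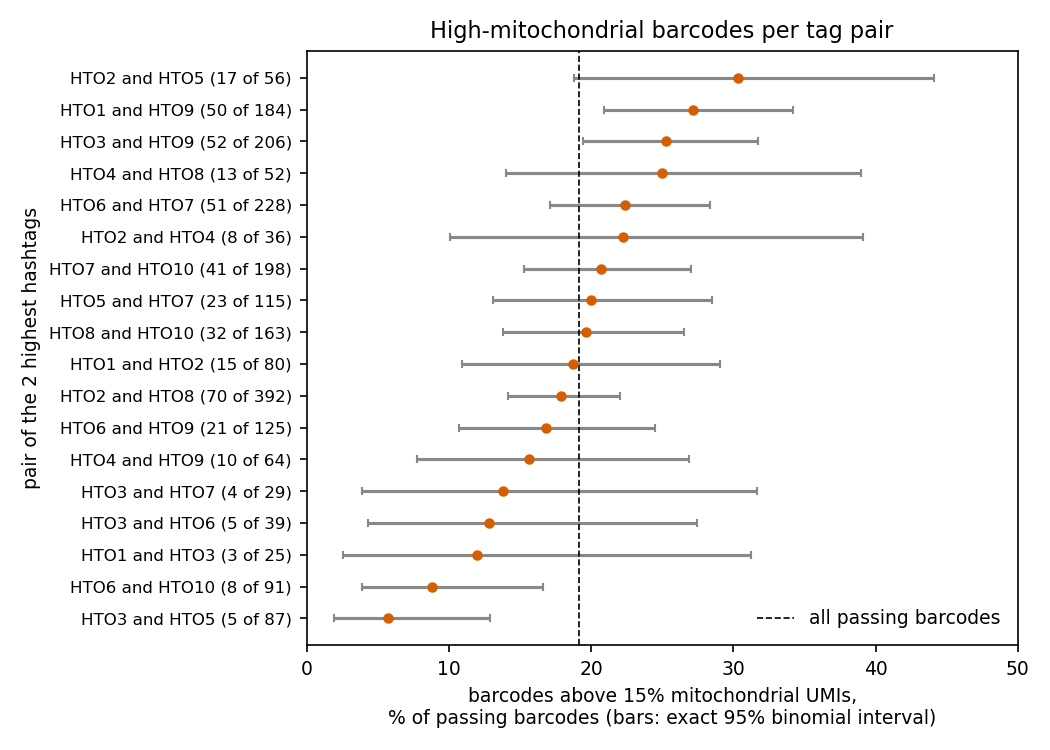
Each row is 1 of 18 pairs of hashtags, with the number of high-mitochondrial and passing barcodes in brackets, and the x axis is the share of passing barcodes above 15% mitochondrial UMIs, with exact 95% binomial intervals as bars. The dashed line is the 19.2% of all passing barcodes, which 4 of the 18 intervals leave out.

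The RNA pattern held within each pair. Malat1 was higher in the high-mitochondrial barcodes of 18 of 18 pairs, by 5.17- to 21.2-fold with a median of 9.81. Ribosomal protein genes were lower in 18 of 18, at 0.400 to 0.543 of the reference of the same pair, and abundant cytosolic messages in 18 of 18, at 0.365 to 0.579. Median non-mitochondrial UMIs were 0.0582 to 0.119 times those of the reference of the same pair, and median mitochondrial UMIs were higher in 16 of 18. Both enter the share by which the barcodes were chosen, so these 2 values describe them only. Of the 18 pairs 12 held at least 10 high-mitochondrial barcodes, and the smallest held 3. The interferon-gamma list was higher in 16 of 18 pairs, with ratios from 0.622 to 1.90. Pairs are not tied to conditions, and no test was made between them.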

How the data were processed

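One pool of 18 tumors gave 1 gene expression and 1 hashtag library (10x Genomics 3' assay, per the labels' protocols), deposited together as raw UMI counts per gene and hashtag for 20917 barcodes. The counts were not normalized by the authors. Cell Ranger 6.1.2 is named per the file headers. Version 2.1.1 and GRCm38 are named in the submitters' processing notes, and the difference is unresolved. The filter behind the barcode list is not given in the sources used here. The depth was 1143 to 20493 gene UMIs per high-mitochondrial barcode and 1005 to 176379 per reference barcode.

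UMIs were summed over each group and scaled to the total of non-mitochondrial UMIs (CPM). Genes with a mean of both groups of at least 10 CPM were called by size, at 2-fold after 5 CPM was added. No test was made, since there is 1 pool. Intervals at 95% are exact Poisson, Clopper-Pearson or, for ratios, conditional binomial ones and cover counting error only, and a count of 0 allows up to 3 counts. Named genes are the 12 highest and 12 lowest by log2 ratio, the 13 mitochondrial genes and at most 4 members per list, those of highest mean level, and a few of these are not reported here. The members and lists were chosen with earlier results of these data known. No entry of the feature list carried the symbol of 4 list members. Of Ddit3 and Aldoa, each with 2 gene IDs, the first was used. Of ribosomal protein symbols 82 matched, Rps19bp1 among them. GENCODE M21 (GRCm38) gave coordinates, biotypes and spans through the gene IDs. The fold calls were tested on simulated data. Python 3.11.15, numpy 2.4.6, scipy 1.17.1, pandas 2.3.3 and matplotlib 3.10.9 were used. Alternatives changed the share threshold, the minimums, the scale, the added CPM, the fold, the depth range, the tag pairs and the free RNA.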

Additional observations from a re-analysis of the deposited data

How the results depend on the processing

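No paired analysis was possible because there is 1 library of each kind, so no replicate numbers pair samples; the values within tag pairs stand above. With other thresholds of the mitochondrial share the high-mitochondrial barcodes made up 21.6% (above 10%), 16.5% (above 20%) and 9.65% (above 30%) of the passing barcodes, and 17.3% with a minimum of 1000 genes. Genes at least 2-fold higher, 2163 at the settings of the report, numbered 768 with mitochondrial genes kept in the totals, 901 with 20 CPM added, 822 among genes of at least 50 CPM, 3784 at 1.5-fold, 1238 when levels were averaged over depth strata and 873 among barcodes of 3000 to 10000 UMIs. Genes at least 2-fold lower, 277 at those settings, numbered 419 above 30% mitochondrial share, 1077 with mitochondrial genes kept, 151 with 20 CPM added, 1072 at 1.5-fold, 142 over depth strata, 581 with ribosomal genes left out of the totals and 596 with free RNA subtracted. Of the gene lists other than cell type markers, 10 had a ratio above 1. That number was 5 with mitochondrial genes kept, 7 over depth strata and 14 among barcodes of at least 3000 UMIs. Leaving out each of 18 tag pairs gave 2105 to 2219 higher genes, 266 to 317 lower genes and 10 to 11 lists. The macrophage ratio (7.08) was 0.422 above 20%, 0.434 above 30%, 0.216 over depth strata, 0.0246 at 3000 to 10000 UMIs and 0.586 to 11.8 when tag pairs were left out, the lowest without HTO7 and HTO10, which holds the barcode with 341 of its 374 UMIs. At 3000 to 10000 UMIs the ratio of loci overlapping ribosomal RNA was 0.684, of fibroblast markers 0.604 (0.857 over depth strata) and of pericyte markers 0.593. The cause of these changes was not tested, beyond the fewer genes or barcodes that some settings use. The comparison at 3000 to 10000 UMIs, the one without barcodes rich in macrophage markers and the subtraction of free RNA were added after seeing the data. The range above 50% mitochondrial share holds 59 barcodes with a median of 1345 non-mitochondrial UMIs, which limits its precision.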

Other observations

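The interferon-gamma response list differed between tag pairs in the high-mitochondrial barcodes as it did in the reference barcodes of the same pairs. In 6 pairs it summed to 5776 to 7219 CPM in high-mitochondrial barcodes, and these 6 pairs were also the highest in the reference, at 3933 to 5520 CPM. They are HTO3 and HTO9 (7219 against 5520 CPM), HTO1 and HTO9 (7115 against 5202), HTO6 and HTO7 (6471 against 3933), HTO7 and HTO10 (5975 against 4983), HTO8 and HTO10 (5827 against 4619) and HTO2 and HTO8 (5776 against 4441). The other 12 pairs stood at 731 to 2286 CPM in high-mitochondrial and 808 to 1836 CPM in reference barcodes, with the largest step between neighbouring pairs, 2.53-fold and 2.14-fold, between the 6 and the 12 in both groups. Class I presentation genes had their largest step at the same place, from 11885 to 8667 CPM (1.37-fold) in high-mitochondrial and from 12668 to 5940 CPM (2.13-fold) in reference barcodes. HTO3 and HTO7, HTO3 and HTO6, and HTO1 and HTO3 held only 16 UMIs of the interferon-gamma list each in their high-mitochondrial barcodes. The labels put no tag pair in a group, so these values were compared with no condition and no test was made.

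Of the 10 genes with more UMIs per high-mitochondrial than per reference barcode, Gm26917 had 2.84 against 2.32 and Firre, a noncoding RNA of the X chromosome that stays in the nucleus, 0.110 against 0.0983. Gm10848, an antisense transcript, had 0.130 against 0.121 and Pycard, the adaptor of inflammasomes, 0.151 against 0.148. Apart from Gm26917, Ly6c2, Lyz2 and Ms4a4c these differences rest on at most 66 UMIs each in the high-mitochondrial barcodes, and the genes were picked by this property.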
